A study of Homo sapiens with 12 samples.

Results

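The receptors and SMAD proteins that carry TGF-beta and BMP signals were followed as a set of 10 genes: TGFBR1, TGFBR2, BMPR1A, BMPR2, ACVR1, ACVR2A, SMAD2, SMAD3, SMAD4 and SMAD7. They were chosen by name, with earlier results of these data known. TGFBR2, BMPR2 and SMAD7 were included as reported targets of the microRNA miR-21. The arrays held 30 probe sets with 1 of these gene symbols and no other, out of 41091 single-symbol probe sets, and these covered 9 of the 10 genes. BMPR1A is not analysed here. Jurkat, an established human T-cell leukaemia line grown in RPMI with 10% FBS, was given a miR-21 construct (labelled as overexpression) or a control vector. From each, RNA of 3 fractions was hybridised: whole-cell RNA (Total RNA), RNA pulled down with AGO2 (AGO2 IP) and RNA pulled down with control IgG (IgG IP). Argonaute 2, or AGO2, is the protein that holds a miRNA and the mRNAs it pairs with. The 6 groups had 2 replicates each, 12 arrays in all, and the label reaction used 1 ug for Total RNA and 100 ng for the IPs. The labels do not say whether replicates were separate cultures, so p-values measure the spread between these samples only, which may be technical. Neither the promoter of the construct nor the number of clones is given in the sources used here. The probe sets that list MIR21 also list a second gene and were not used, so the construct was not checked on its own product.

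Ligands of the TGF-beta family bring type II and type I receptor kinases together on the cell surface, and the type II receptor then phosphorylates the type I receptor. The type I receptor phosphorylates receptor-regulated SMADs, which join the common SMAD, SMAD4, and act on transcription in the nucleus, while the inhibitory SMADs, SMAD7 among them, block the type I receptor and promote its turnover. In T cells TGF-beta is known for restraining proliferation and for its part in regulatory T-cell differentiation.

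The sequence of miR-21 is shown because targets of a miRNA are recognised chiefly through its seed. Capitals mark the seed, bases 2 to 8, in mature miRNAs from the RefSeq annotation of GRCh38.p14. They mark the mature 5p arm in the hairpin. Of the 2545 mature miRNAs in that table, 2 carried the seed AGCUUAU, whose reverse complement is AUAAGCU, and the other is shown beside miR-21.
hsa-miR-21-5p: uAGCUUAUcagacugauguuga
hsa-miR-590-5p: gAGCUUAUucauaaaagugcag
MIR21 hairpin: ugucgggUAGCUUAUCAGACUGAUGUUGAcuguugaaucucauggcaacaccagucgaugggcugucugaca
The mature miR-21-5p of 22 bases lies at chr17:59841273-59841294 on the plus strand, inside the hairpin at chr17:59841266-59841337. The mature miR-590-5p lies at chr7:74191213-74191234, also on the plus strand. Sites for this seed in the members' transcripts were not searched here.

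Levels are log2 RMA values, where a difference of 1 is a 2-fold ratio, and they are compared only within a probe set. A difference between an IP and Total RNA is relative to the other RNAs on the same arrays, not to the amount of RNA per cell. Array means were 4.39 to 4.40 in replicate 1 and 5.25 to 5.27 in replicate 2. In replicate 2 the arrays of both IPs of a construct resembled each other: the SD of AGO2 IP minus IgG IP over 23123 probe sets was 0.195 for the control vector and 0.342 for miR-21, against 0.821 and 0.764 in replicate 1. The correlation of the AGO2 IP with the IgG IP array was 0.996 and 0.988 in replicate 2 and 0.920 and 0.931 in replicate 1. Whether the IPs of replicate 2 hold what their labels say was not tested, so values of that replicate are given under their labels and AGO2 and IgG results are given by replicate as well. The 3' minus 5' signal of the ACTB control probe sets, a sign of RNA length, ran from 1.35 to 4.0 in replicate 1, with the highest value on the control vector AGO2 array, and from 2.08 to 3.53 in replicate 2. Probe sets of all 10 T-cell genes checked passed the filter on low values. In Total RNA CD3D stood at 12.1 to 12.9, and CD28, close to the filter, at 4.16 to 4.64. Of the markers of other cells, 1 of 4 B-cell, 1 of 4 monocyte, 2 of 5 epithelial and 1 of 2 erythroid genes passed. These were CD79A, CSF1R, KRT8, KRT18 and HBB, and KRT18 reached 7.27 in Total RNA. In bulk RNA, fewer cells of a type and less RNA per cell cannot be told apart.

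In AGO2 IP against Total RNA, the receptors went both ways. TGFBR2, ACVR2A and ACVR1 were higher in AGO2 IP and BMPR2 was lower, while TGFBR1, SMAD3 and SMAD4 did not pass the test. SMAD2 had 1 probe set that rose and 1 that fell. These calls come from limma with the replicate number as a block, with calls made at p under 0.05 after Benjamini-Hochberg adjustment over the 23123 probe sets that passed the filter. Of the members' 30 probe sets, 19, from 8 genes, passed it. With the block, 8 of those 19 were called, 4 higher and 4 lower, in 5 genes, where the share of all probe sets called was 13.8%. By direction that share was 3.89% higher and 9.91% lower. The model without the block was set as the main test and the block as an alternative. Without the block limma called 0 of the 19 and 0 of all probe sets. At an unadjusted p under 0.05 that model had 3 of the 19 and 1848 in all, and the smallest adjusted p among the 19 was 0.443, that of TGFBR2. Without the miR-21 AGO2 IP array of either replicate, or either Total RNA array of replicate 2, limma with the block called 0 of the 19, and 139 to 370 of all 23123 probe sets. It called 1 of the 19 and 1573 in all without miR-21 Total RNA of replicate 1. Without Total RNA or AGO2 IP of the control vector in that replicate it called 3 of the 19, and 2664 and 1657 in all. The median difference was 0.19 over the 19 and -0.05 over all probe sets tested.

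**Figure D1:**
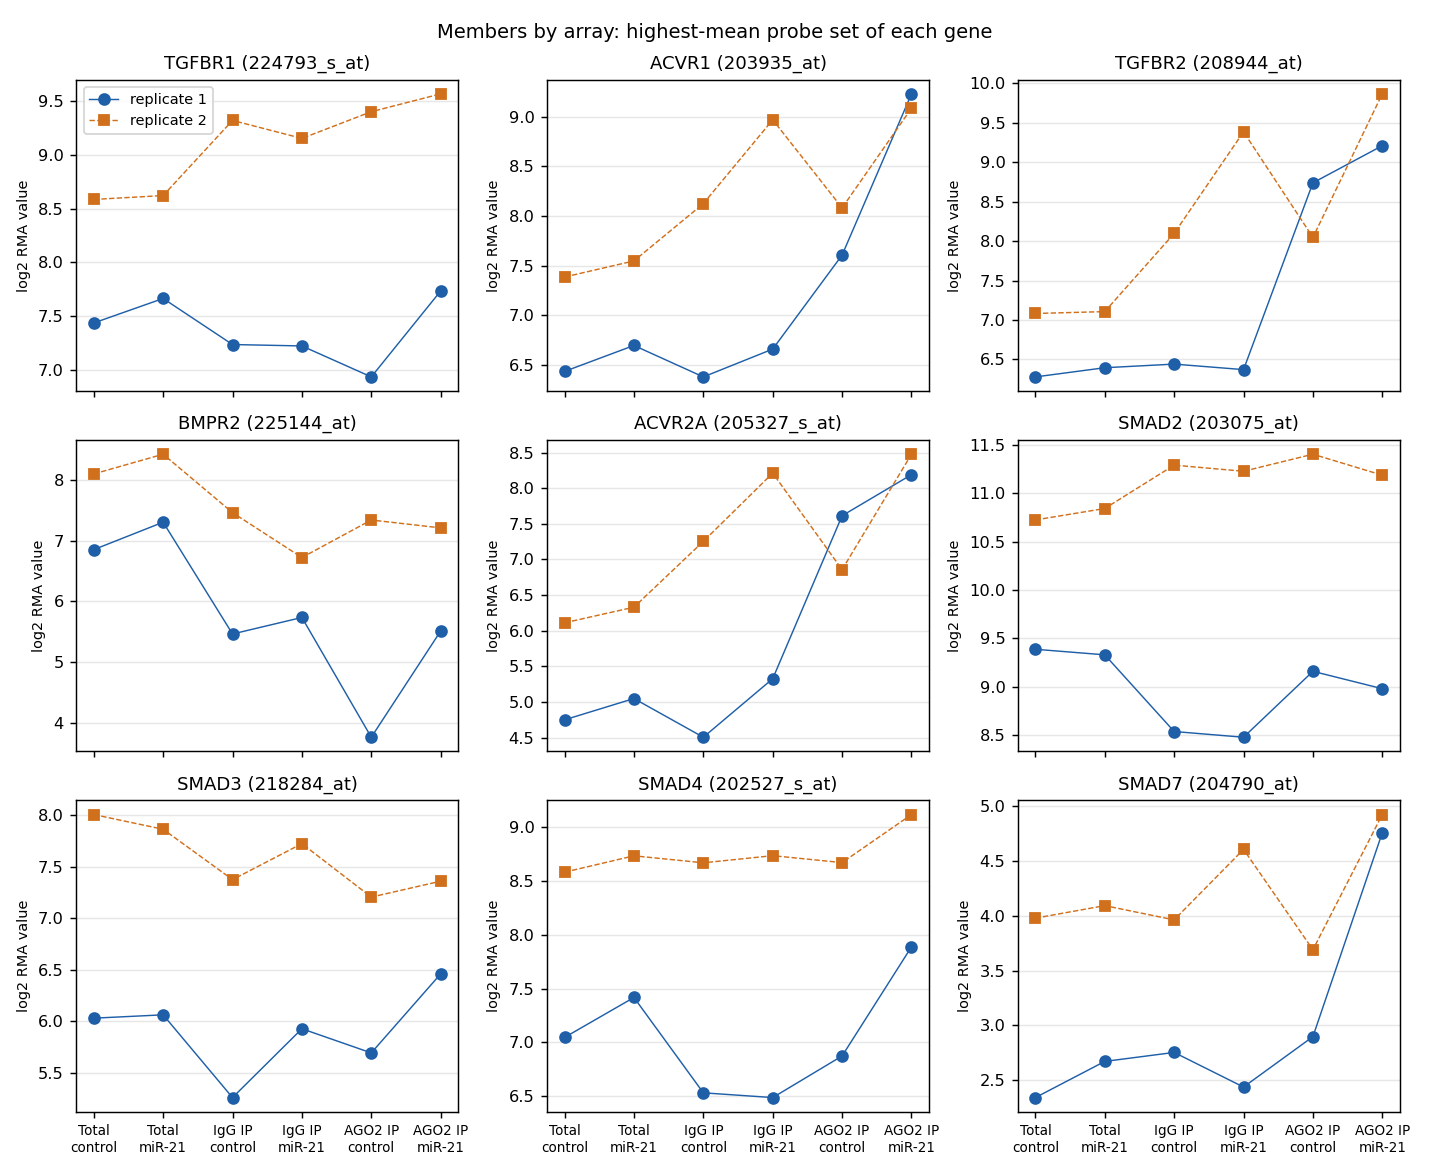
The log2 RMA value of the highest-mean probe set of each of the 9 genes (vertical axis, scaled per gene) in the 6 groups (horizontal axis), with circles for replicate 1 and squares for replicate 2. TGFBR2, ACVR2A and ACVR1 lie higher in all 4 AGO2 IP arrays than in the 4 Total RNA arrays, and in replicate 2 the IgG IP arrays are also high.

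Among the type II receptors, TGFBR2 is the receptor that binds TGF-beta itself. Its probe set 208944_at read 6.28 and 6.39 in Total RNA of replicate 1 (control vector, then miR-21, an order kept for all members), 6.44 and 6.37 in IgG IP, and 8.74 and 9.21 in AGO2 IP. In replicate 2 it read 7.08 and 7.11 in Total RNA, 8.10 and 9.38 in IgG IP, and 8.05 and 9.86 in AGO2 IP. All 4 AGO2 IP arrays lay above all 4 Total RNA arrays, and the IgG IP arrays were at the Total RNA level in replicate 1 and near the AGO2 IP level in replicate 2. TGFBR2 was 2.25 ± 0.49 higher in AGO2 IP than in Total RNA (SE, 4 arrays against 4, limma with the block, adjusted p = 0.0233). The 4 differences taken within construct and replicate were 2.46, 2.81, 0.96 and 2.76, the smallest of them from the control vector in replicate 2. Ordered by group mean, TGFBR2 ran from 6.68 ± 0.57 in control vector Total RNA through 6.75 ± 0.50 in miR-21 Total RNA, 7.27 ± 1.17 and 7.88 ± 2.13 in IgG IP and 8.39 ± 0.49 in control vector AGO2 IP to 9.54 ± 0.46 in miR-21 AGO2 IP (SD, n = 2 each). Only the last pair of neighbours in that order differed by more than the SD of both groups. These SDs include the shift between the replicates, so they are a poor measure for such steps. That last pair, miR-21 against control vector in AGO2 IP, was not called by limma. The second TGFBR2 probe set, 207334_s_at, ran from 2.65 to 4.74 and was below the filter.

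ACVR2A, a type II receptor for activins and some BMPs, was 2.22 ± 0.55 higher in AGO2 IP (205327_s_at, adjusted p = 0.0329). In replicate 1 its values were 4.75 and 5.05 in Total RNA, 4.5 and 5.33 in IgG IP, and 7.61 and 8.19 in AGO2 IP. In replicate 2 they were 6.11 and 6.33 in Total RNA, 7.25 and 8.21 in IgG IP, and 6.86 and 8.48 in AGO2 IP. The 4 AGO2 IP arrays again stood above the 4 Total RNA arrays, by 2.86 and 3.14 in replicate 1 and by 0.75 and 2.15 in replicate 2. The other ACVR2A probe set, 228416_at, was 0.86 higher, positive in 4 of 4 pairs, with an adjusted p of 0.153.

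BMPR2, the type II receptor for BMPs, was the member lower in AGO2 IP. Probe set 225144_at read 6.85 and 7.31 in Total RNA of replicate 1, 5.46 and 5.73 in IgG IP, and 3.76 and 5.51 in AGO2 IP. In replicate 2 it read 8.10 and 8.43 in Total RNA, 7.46 and 6.72 in IgG IP, and 7.34 and 7.21 in AGO2 IP. Both IPs were below Total RNA in each replicate, and the lowest array of the 12 was the control vector AGO2 IP of replicate 1, which also had the highest ACTB 3' minus 5' signal and the highest GAPDH 3' minus 5' signal (1.95). In replicate 2 the ACTB signal was 2.58 and 2.08 in AGO2 IP and 3.53 and 3.18 in Total RNA, while the GAPDH signal was 1.05 and 1.02 in AGO2 IP and 0.71 and 0.58 in Total RNA. The part of RNA length in the BMPR2 values was not tested. The difference between AGO2 IP and Total RNA was -1.72 ± 0.40 (adjusted p = 0.0270), from pair differences of -3.09, -1.79, -0.76 and -1.22. BMPR2 probe sets 231873_at, at -1.52 ± 0.27 (adjusted p = 0.0154), and 210214_s_at, at -0.89 ± 0.22 (adjusted p = 0.0332), fell too. Its probe set 209920_at stood at -0.76 with an adjusted p of 0.0507. The remaining BMPR2 probe sets, 1556075_at and 238516_at, were below the filter, and correlations between pairs of the 6 probe sets over the 12 arrays, with the replicate mean removed, ran from -0.60 to 0.94.

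**Figure D2:**
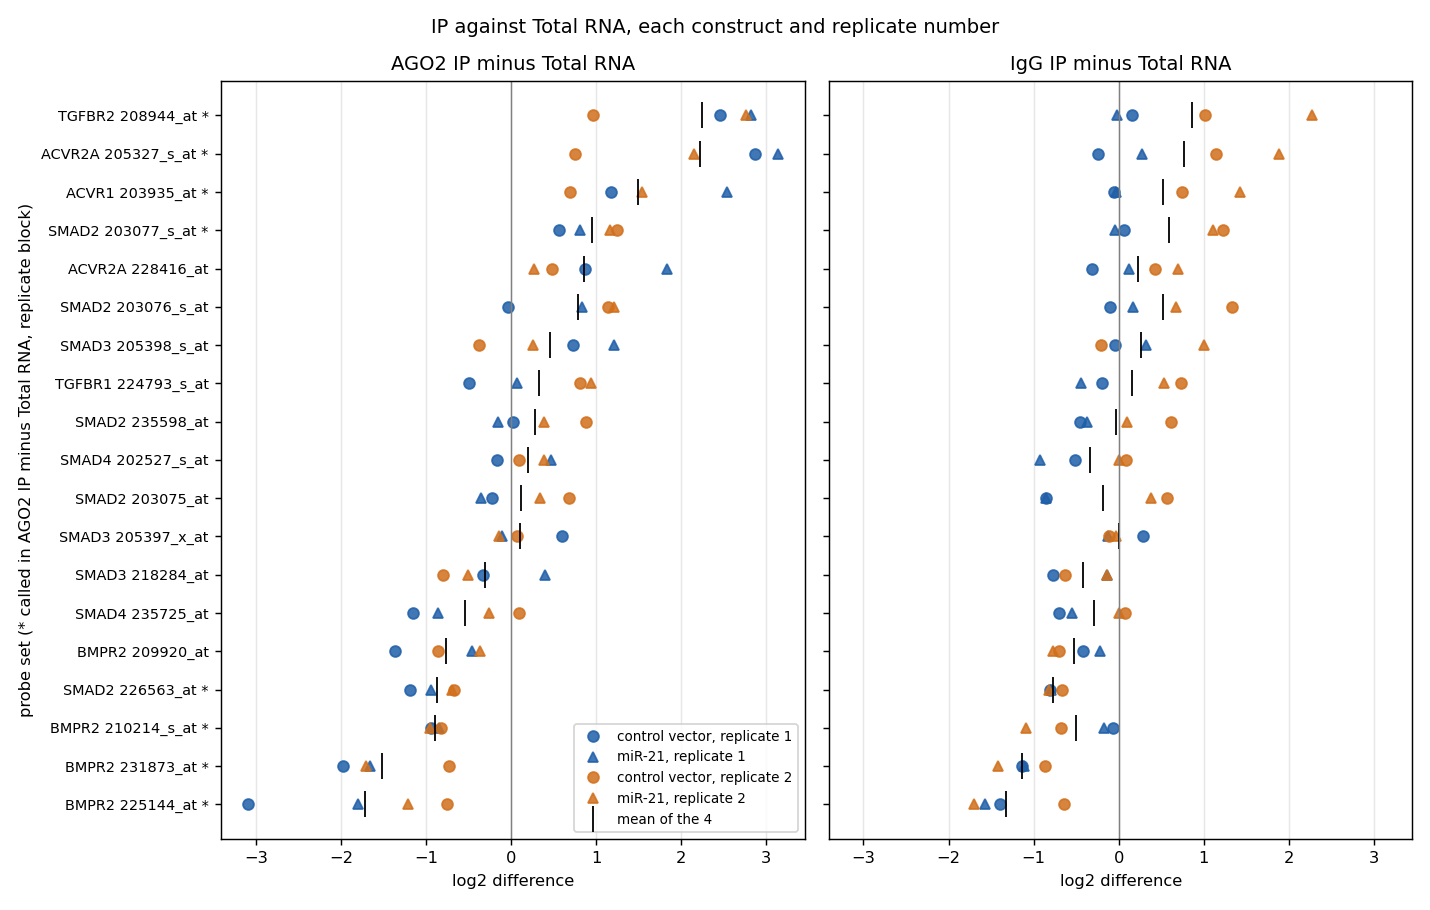
Log2 difference of AGO2 IP (left) and IgG IP (right) from Total RNA for the 19 probe sets past the filter. Circles are control vector, triangles miR-21, blue replicate 1 and orange replicate 2, a bar is the mean of the 4, and an asterisk marks the 8 probe sets called in AGO2 IP with the replicate block. Both panels use the same Total RNA arrays.

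Of the type I receptors, ACVR1, also called ALK2, is a kinase of BMP and activin signalling. Its probe set 203935_at read 6.43 and 6.69 in Total RNA of replicate 1, 6.38 and 6.66 in IgG IP, and 7.61 and 9.23 in AGO2 IP. In replicate 2 it read 7.38 and 7.55 in Total RNA, 8.12 and 8.97 in IgG IP, and 8.08 and 9.09 in AGO2 IP. ACVR1 was 1.49 ± 0.37 higher in AGO2 IP than in Total RNA (adjusted p = 0.0329), by 1.17, 2.54, 0.70 and 1.54 in the 4 pairs, and its 4 AGO2 IP arrays did not overlap the 4 Total RNA arrays. TGFBR2, ACVR2A and ACVR1 were 3 of the 19 probe sets separated upwards in this way, as were 3.27% of all probe sets tested.

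TGFBR1, also called ALK5, is the type I partner of TGFBR2. Its probe set 224793_s_at read 7.44 and 7.66 in Total RNA, 7.24 and 7.22 in IgG IP and 6.94 and 7.73 in AGO2 IP of replicate 1. In replicate 2 the values were 8.58 and 8.62, 9.32 and 9.15, and 9.40 and 9.57 in the same order. AGO2 IP was thus on either side of Total RNA in replicate 1 (-0.22 on average) and above it in replicate 2 (0.88), and the difference of 0.33 ± 0.27 did not pass the test (adjusted p = 0.460). TGFBR1 probe set 236561_at, just under the filter at a mean of 3.85, was lower in both IPs: -1.15 in AGO2 IP and -1.55 in IgG IP, with adjusted p-values of 0.0149 and 0.00837 when limma with the block was run with no filter. The third, 206943_at, was 0.70 higher in AGO2 IP there (adjusted p = 0.0343), so the 3 TGFBR1 probe sets did not move together.

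SMAD2 and SMAD3 are the receptor-regulated SMADs of TGF-beta and activin. SMAD2 probe set 203075_at read 9.39 and 9.33 in Total RNA, 8.54 and 8.48 in IgG IP and 9.16 and 8.98 in AGO2 IP of replicate 1, and 10.7 and 10.8, 11.3 and 11.2, and 11.4 and 11.2 in replicate 2. The IPs were below Total RNA in replicate 1 and above it in replicate 2, and AGO2 IP minus Total RNA was 0.11 ± 0.28 (adjusted p = 0.831). For SMAD2 probe set 203077_s_at the difference was 0.94 ± 0.26 (adjusted p = 0.0443), higher in 4 of 4 pairs, and for 226563_at it was -0.87 ± 0.19 (adjusted p = 0.0223), lower in 4 of 4. SMAD2 probe sets 203076_s_at (0.79, adjusted p = 0.0764) and 235598_at (0.28, adjusted p = 0.447) did not pass. Correlations between the 6 SMAD2 probe sets ran from -0.77 to 0.89 over the 12 arrays with the replicate mean removed, so the array gave no single direction for SMAD2.

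**Figure D3:**
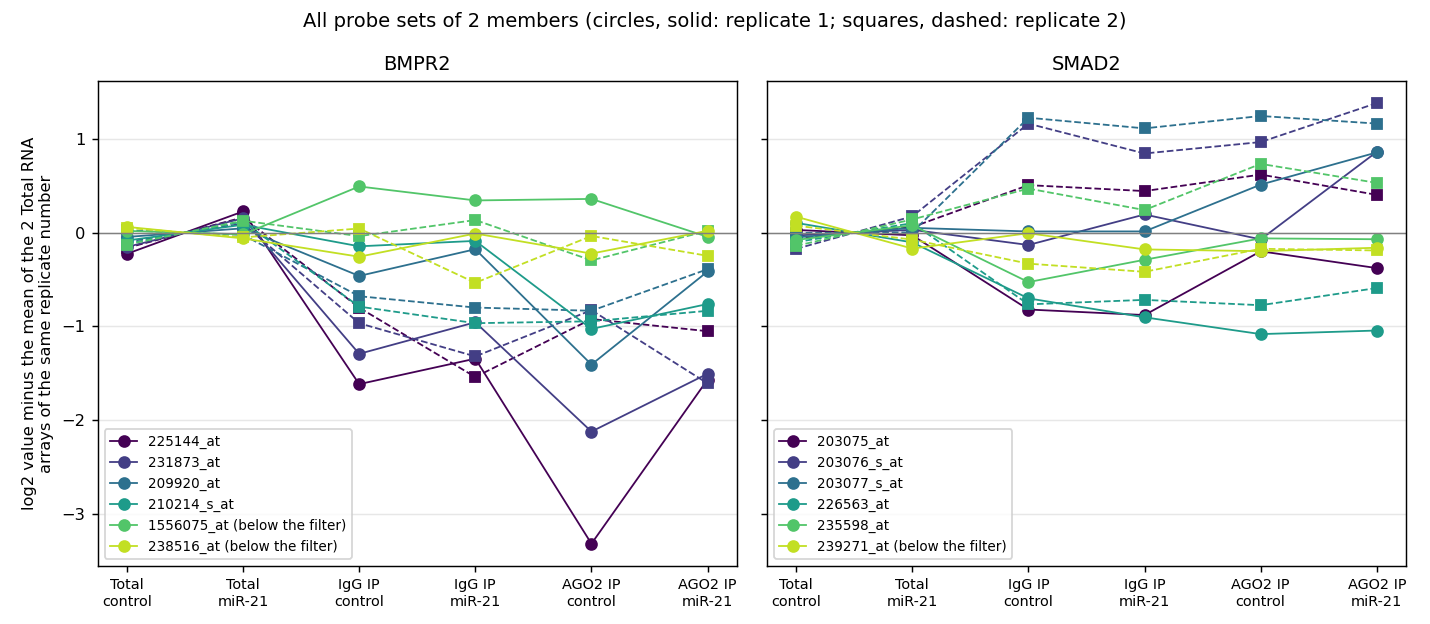
All 6 probe sets of BMPR2 (left) and of SMAD2 (right) in the 6 groups, as the log2 value minus the mean of both Total RNA arrays of the same replicate, with circles for replicate 1 and squares for replicate 2. The BMPR2 probe sets above the filter lie below 0 in the AGO2 IP arrays, and those of SMAD2 lie on both sides.

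SMAD3 probe set 218284_at read 6.03 and 6.06 in Total RNA, 5.26 and 5.93 in IgG IP and 5.69 and 6.46 in AGO2 IP of replicate 1. In replicate 2 it read 8.0 and 7.86, 7.37 and 7.72, and 7.20 and 7.36. AGO2 IP minus Total RNA was -0.31 ± 0.23 (adjusted p = 0.411), with 0.03 in replicate 1 and -0.65 in replicate 2. The other SMAD3 probe sets past the filter stood at 0.46 (205398_s_at, adjusted p = 0.381) and 0.10 (205397_x_at, adjusted p = 0.800). SMAD4, the partner that all receptor-regulated SMADs share, read 7.05 and 7.42 in Total RNA, 6.53 and 6.49 in IgG IP and 6.87 and 7.89 in AGO2 IP of replicate 1 with 202527_s_at. In replicate 2 it read 8.58 and 8.73, 8.67 and 8.73, and 8.67 and 9.11. Its miR-21 AGO2 IP array was the highest of the 6 in each replicate. AGO2 IP minus Total RNA was 0.19 ± 0.23 for that SMAD4 probe set (adjusted p = 0.624) and -0.55 ± 0.24 for 235725_at (adjusted p = 0.156).

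SMAD7 has a single probe set, 204790_at, whose mean of 3.59 was below the filter at 4.02, so it was not in the tests above. Its values in replicate 1 were 2.34 and 2.67 in Total RNA, 2.75 and 2.44 in IgG IP, and 2.90 and 4.76 in AGO2 IP. In replicate 2 they were 3.98 and 4.09, 3.96 and 4.61, and 3.69 and 4.92. The miR-21 AGO2 IP array was again the highest of each replicate, and the control vector AGO2 IP array was the lowest of replicate 2. SMAD7 in AGO2 IP was 0.80 above Total RNA on average, 1.32 in replicate 1 and 0.27 in replicate 2, with an adjusted p of 0.148 by limma with the block and no filter.

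The IgG IP shows what is pulled down without the AGO2 antibody. Against IgG IP, limma called 0 of the 19 probe sets in AGO2 IP, with the block or without it, and 0% of all probe sets tested. At an unadjusted p under 0.05 without the block there were 0 of the 19 and 44 in all. TGFBR2 was 1.39 ± 0.49 above IgG IP on average (adjusted p = 0.881), but 2.57 in replicate 1 and 0.22 in replicate 2. ACVR2A gave 1.46 ± 0.55, from 2.99 and -0.07, and ACVR1 gave 0.97 ± 0.37, from 1.90 and 0.04. For these 3 receptors the excess over IgG was therefore present in replicate 1 and near 0 in replicate 2, where the IgG and AGO2 arrays resembled each other. Within replicate 1 alone, limma with fraction and construct as terms called 6 of the 19, 5 higher and 1 lower, where 15% of all probe sets were called. TGFBR2 (adjusted p = 0.00159), ACVR2A (0.00111 and, for 228416_at, 0.0223), ACVR1 (0.0258) and SMAD3 (205398_s_at, 0.0447) were higher and BMPR2 (210214_s_at, 0.0390) was lower. By direction, 9.04% of all probe sets were called higher and 5.92% lower within replicate 1. Within replicate 2 that model called 0 of the 19 and 0% of all probe sets. Fits within 1 replicate take the arrays of both constructs as the replicates of a fraction. Their p-values therefore do not measure the spread between replicates.

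IgG IP against Total RNA shares its Total RNA arrays with the AGO2 IP comparison. None of the 19 was called with the block, where 2.59% of all probe sets were (0.29% higher and 2.31% lower), or without it, where an unadjusted p under 0.05 was reached by 0 of the 19 and 703 in all. BMPR2 stood at -1.33 ± 0.40 (225144_at, adjusted p = 0.121), with -1.48 in replicate 1 and -1.17 in replicate 2, beside its -1.72 in AGO2 IP. AGO2 IP minus IgG IP for BMPR2 was -0.39 ± 0.40, so the BMPR2 values of IgG IP lay closer to AGO2 IP than to Total RNA. TGFBR2 stood at 0.86 ± 0.49 in IgG IP, with 0.07 in replicate 1 and 1.65 in replicate 2. ACVR2A (0.02 and 1.51) and ACVR1 (-0.05 and 1.08) had the same split between replicates. Within replicate 1 alone 1 of the 19 was called (BMPR2 231873_at, adjusted p = 0.0454), where the share of all probe sets was 2.68%. Within replicate 2 alone 9 were, where it was 29%, and these included TGFBR2, ACVR2A, ACVR1 and 3 probe sets each of BMPR2 and SMAD2.

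The comparison of constructs asks whether adding miR-21 moved the members' mRNAs or their place in AGO2 complexes. Limma called 0 of the 19 probe sets and 0% of all probe sets in Total RNA, AGO2 IP or IgG IP, with the block or without it. At an unadjusted p under 0.05 without the block there were 0 probe sets in all in Total RNA, 29 in AGO2 IP and 3 in IgG IP. In Total RNA the construct differences of the 19 probe sets ran from -0.06 to 0.39, with a median of 0.13 against 0.02 over all probe sets. BMPR2 had the largest of these, 0.39 (0.45 and 0.33 in the 2 replicates), and TGFBR2 had 0.07. SMAD7, below the filter, stood at 0.22. By the highest-mean probe set, all 3 reported targets were thus at or slightly above the control vector in Total RNA. Over its 6 probe sets, whatever their level, BMPR2 ran from -0.11 to 0.39.

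In AGO2 IP the members' values were mostly above those of the control vector, with none past the threshold. SMAD7, whose control vector values of 2.90 and 3.69 lie below the filter, stood at 1.55, from 1.86 in replicate 1 and 1.23 in replicate 2, and so rests on a low baseline. With no filter, limma with the block gave SMAD7 an SE of 0.42, an unadjusted p of 0.0054 and an adjusted p of 0.999. Among the tested genes ACVR1 stood at 1.32 ± 0.52 (1.63 and 1.00), then TGFBR2 with 1.14 ± 0.69 (0.47 and 1.82) and ACVR2A with 1.10 ± 0.78 (0.58 and 1.62). BMPR2, at 0.81 ± 0.56, had opposite signs in the replicates, 1.75 and -0.13. SMAD4 stood at 0.73 ± 0.32 (1.01 and 0.45), TGFBR1 at 0.48, SMAD3 at 0.46 and SMAD2 at -0.20. Other probe sets of these genes had the other sign. Over all probe sets, whatever their level, SMAD4 ran from -0.84 to 0.73 and TGFBR1 from -0.62 to 0.48. SMAD3 ran from -0.11 to 0.65, SMAD2 from -0.20 to 0.68 and BMPR2 from -0.08 to 0.81. By the highest-mean probe set, 7 of the 9 genes were higher with miR-21 in both replicates and 1 was lower in both. Over all probe sets 27.1% were higher in both. In Total RNA the count was also 7 of 9, with 0 lower in both, where 29.2% of all probe sets were higher in both, so the count of 7 does not set AGO2 IP apart. The SD of the difference between constructs over all probe sets was 0.570 and 0.603 in AGO2 IP, against 0.230 and 0.221 in Total RNA. The control vector and miR-21 AGO2 IP arrays of replicate 1 also differed in the ACTB 3' minus 5' signal, 4.0 against 1.97, and its part in these differences was not tested.

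**Figure D4:**
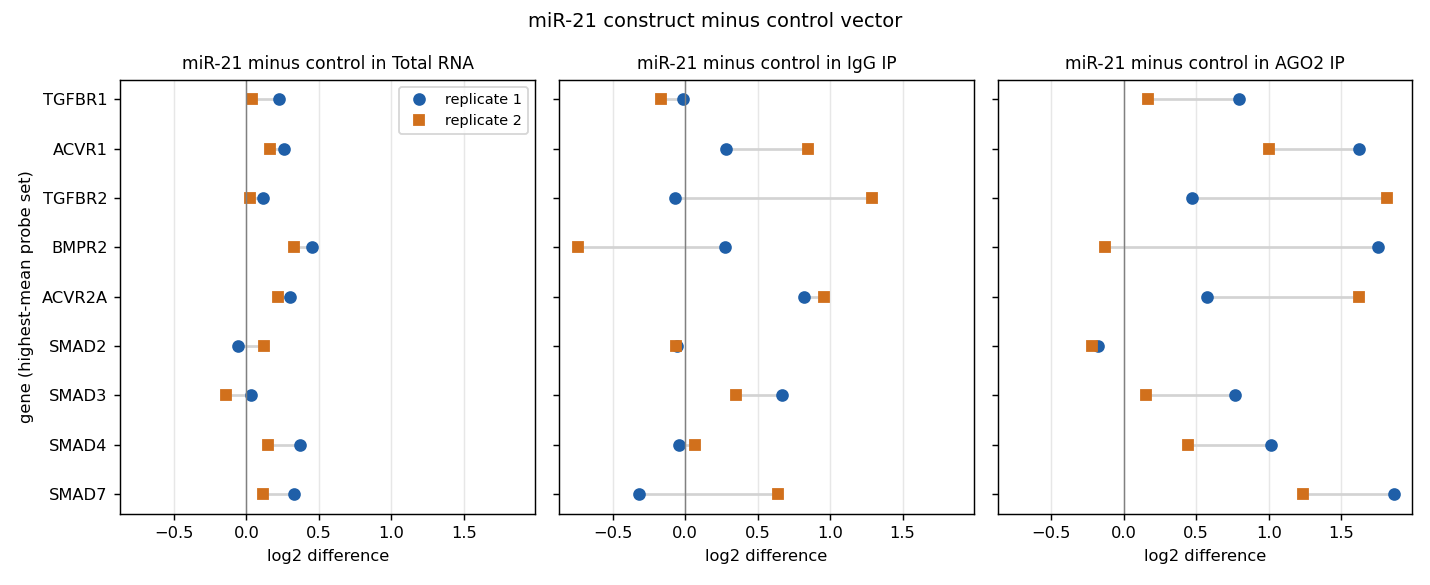
Log2 difference of miR-21 from control vector in Total RNA, IgG IP and AGO2 IP for the highest-mean probe set of each of the 9 genes, with a circle for replicate 1 and a square for replicate 2. Both points are above 0 for 7 genes in AGO2 IP and for 7 in Total RNA, where the differences are smaller, and none passed the test.

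In IgG IP, 3 of the 9 genes were higher with miR-21 in both replicates and 2 were lower in both, beside 27.8% higher in both over all probe sets. ACVR2A stood at 0.89 (0.82 and 0.96), ACVR1 at 0.56 (0.28 and 0.85) and TGFBR2 at 0.61 (-0.07 and 1.29) there. SMAD7 stood at 0.16, with -0.32 and 0.64. The construct difference in AGO2 IP minus that in IgG IP was 1.38 for SMAD7, below the filter, from 2.18 and 0.59. For BMPR2 it was 1.05, the highest of its 6 probe sets, which ran from -0.07 to 1.05. For TGFBR2 it was 0.54 ± 0.98 (0.54 and 0.53). No interaction of construct and fraction was called for any of the 19 probe sets, and 0% was called of all probe sets tested. At an unadjusted p under 0.05 without the block there were 4 in all for AGO2 IP against Total RNA and 1 for AGO2 IP against IgG IP. The construct difference in AGO2 IP minus that in Total RNA was 1.33 for SMAD7 (1.53 and 1.12), 1.10 for ACVR1 and 1.07 ± 0.98 for TGFBR2.

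Likeness of pattern was taken as Pearson's correlation over the 12 arrays after the mean of each replicate was removed, which all share the same arrays, and is a description only. Among the members, TGFBR2 and ACVR2A had r = 0.974, ACVR1 and ACVR2A 0.948, TGFBR2 and ACVR1 0.940, and ACVR1 and SMAD7 0.906. BMPR2 ran opposite to TGFBR2 (-0.701) and ACVR2A (-0.675). Out of the 12823 other genes compared, those most like TGFBR2 were HBP1 (0.996), VCPKMT (0.995), BCL2L11 (0.995), LRRC1 (0.994) and WT1 (0.994). Those most like BMPR2 were LRPPRC (0.988), AQR (0.985), ANKRD50 (0.984), ATAD2 (0.979) and PCNX1 (0.977). For SMAD7 they were KDELR3 (0.971), LYSMD2 (0.967), STX3 (0.962), KDM6A (0.954) and AMMECR1L (0.953).

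The rest of the pathway was taken as a list of 88 genes in 7 roles, each read by its highest-mean probe set. Of these, 85 had a probe set and 67 passed the filter, while the remaining genes are not analysed here. In AGO2 IP against Total RNA, limma with the block called 8 of the 67 higher and 7 lower, beside 13.8% called of all probe sets, and without it called none. The median was 0.17, against -0.05 over all probe sets tested. E2F5, a partner of SMAD3 in repressing MYC, rose by 2.76 ± 0.53 (adjusted p = 0.0171). ZFYVE9, also called SARA, which presents SMAD2 and SMAD3 to the receptor, rose by 1.83 ± 0.42 (adjusted p = 0.0266). The corepressors TGIF2 (1.63) and TGIF1 (1.43), the BMP coreceptor RGMB (1.51) and the decoy receptor BAMBI (1.43) rose as well. EP300 and CREBBP, the acetyltransferases that SMADs recruit, fell by 2.07 and 1.68 on the log2 scale, EP300 with an adjusted p of 0.0057. USP9X, a SMAD4 deubiquitinase, fell by 1.48, the BMP-pathway SMAD9 fell by 1.17, the RGM receptor NEO1 fell by 1.14 and the ligand TGFB1 fell by 1.08.

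The counts by role, again with the block in AGO2 IP against Total RNA, stand beside 3.89% higher and 9.91% lower over all probe sets. Each role holds few genes, so they are a description only. Of 20 regulators of receptors or SMADs, 4 rose and 1 fell. Of 9 SMAD partners, 1 rose and 3 fell. Of 7 other receptors or coreceptors, 2 rose and 1 fell, and of 9 ligands, 1 rose and 1 fell. Of the other SMADs, 1 of 4 fell. None of 7 genes of ligand activation or trapping and none of 11 transcriptional targets was called. In IgG IP against Total RNA, INHBC, an inhibin subunit, rose by 1.18, and EP300 (by 1.58) and USP9X (by 1.39) fell. INHBC was also called higher in AGO2 IP (0.71, adjusted p = 0.0453 by limma with the block). INHBC was thus high, and EP300 and USP9X low, in both IPs. The other genes named for AGO2 IP had the same sign in IgG IP, with none called. E2F5 stood at 1.15, ZFYVE9 at 0.96, TGIF1 at 0.94, TGIF2 at 0.75, RGMB at 0.65 and BAMBI at 0.57. CREBBP stood at -0.999, NEO1 at -0.85, SMAD9 at -0.69 and TGFB1 at -0.52. In AGO2 IP against IgG IP none of the 67 was called, and E2F5 (1.61, from 3.04 in replicate 1 and 0.19 in replicate 2) and RNF111 (0.86) had the smallest unadjusted p-values, 0.0143 and 0.0261.

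**Figure D5:**
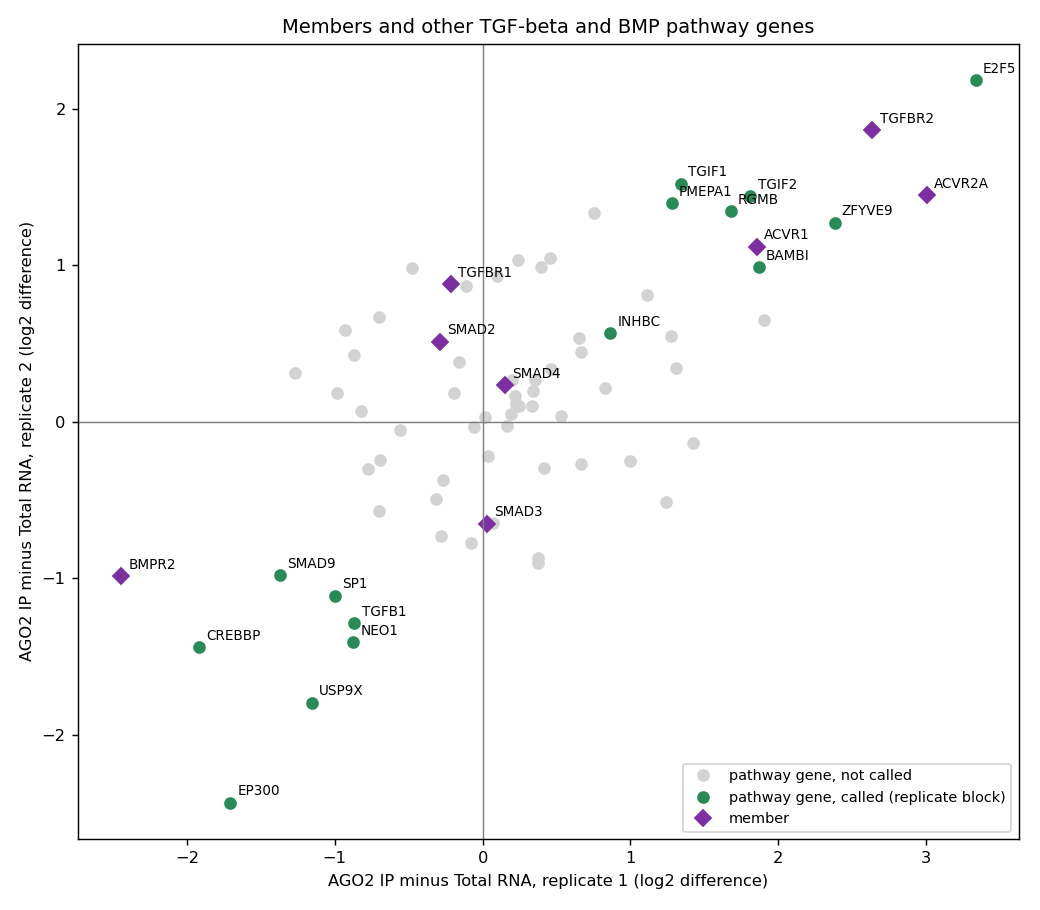
AGO2 IP minus Total RNA in replicate 1 (horizontal) and replicate 2 (vertical), as log2 differences, for 8 members (diamonds) and 67 other pathway genes (circles, green where called with the replicate block). TGFBR2, ACVR2A and ACVR1 lie in the upper right with E2F5 and ZFYVE9, and BMPR2 lies in the lower left with EP300 and CREBBP.

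No pathway gene was called for the construct in any fraction. In AGO2 IP the smallest unadjusted p-values were those of ID2 (1.62 ± 0.43, from 2.30 and 0.94, adjusted p = 1.000 by limma with the block) and ID1 (1.34 ± 0.48, from 0.68 and 1.99). ID1 and ID2 are inhibitors of helix-loop-helix factors and classical BMP targets. The 11 target genes past the filter ran from 0.17 to 1.62 there, with a median of 0.46 against 0.06 over all probe sets. The same 11 had a median of 0.36 in IgG IP, against 0.01 over all probe sets, and of -0.03 in Total RNA, against 0.02. In IgG IP the genes with the smallest unadjusted p were JUNB (0.76) and TOB2 (0.68). In Total RNA they were GDF15, at -0.29, and LTBP4, at -0.25.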

How the data were processed

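The authors deposited RMA values on the log2 scale for 54675 probe sets on 12 Affymetrix arrays, with RMA named per the submitters' processing notes. Neither its version and settings nor whether the arrays were normalized together is given in the sources used here. Probe sets were named with the platform's symbols, and those with a single symbol were kept. Those with a mean over the 12 arrays of at least 4.02, the median over all non-control probe sets, were tested (23123, for 12824 genes). R 4.3.3 and limma 3.58.1 fitted 1 mean per group (6 residual degrees of freedom), and Benjamini-Hochberg adjustment ran over all probe sets tested. Figures used Python 3.11.15, pandas 2.3.3 and matplotlib 3.10.9. The model was checked on simulated data with independent errors and a replicate shift common to all groups. In the real arrays the SD of AGO2 IP minus IgG IP was 0.727 in replicate 1 and 0.192 in replicate 2. The check does not cover such a difference, so it cannot show whether the calls with the block hold. The number of arrays limits the precision.

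The labels number replicates but name no shared culture or day. Over the 15 pairs of groups, departures of arrays with the same number from the group mean correlated at 0.429 to 0.875 (median 0.605), so the numbers were taken to pair the samples. A second fit took the number as a block, which left 5 residual degrees of freedom, and both are reported. The SEs printed are those with the block. Fraction contrasts are means over both constructs.

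The members and lists were chosen with earlier results of these data known. By rule each member was read through its highest-mean probe set. Pathway genes were named where called, up to 6 in each direction, or else the 2 with the smallest unadjusted p, and the 5 genes most like TGFBR2, BMPR2 and SMAD7 were named. Alternatives were other scalings, other filters, 1 probe set per gene, the median over a gene's probe sets, each array left out, each replicate alone and 2 arrays left out.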

Additional observations from a re-analysis of the deposited data

How the results depend on the processing

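The table starts from the model without the replicate block, which called 0 member probe sets in every contrast, and without the block each planned change of scaling, filter, probe set choice or a single array left out also called 0. With the replicate block, AGO2 IP against Total RNA had 8 member probe sets called, 7 after median centring, 9 after quantile normalization and 8 without 2 arrays of replicate 2, the control vector AGO2 IP and the IgG IP of miR-21 cells. Over all probe sets the calls with the block were 3191, 2907 after median centring and 2838 after quantile normalization. Alternatives chosen after seeing the data, all with the block, gave 9 with no filter, where 3076 of 41091 in all were called. With 1 probe set per gene 4 of 8 were called, beside 2051 of 12824 in all. With a filter at 6 it was 6 of 12, beside 2360 of 13408. Within replicate 1 alone 12 were called, where 32.4% of all probe sets were, and within replicate 2 alone 10, where 32.9% were. Quantile normalization with the block moved the calls over all probe sets from 900 higher and 2291 lower to 1098 higher and 1740 lower. AGO2 IP against IgG IP had 2 without those 2 arrays, where 1020 of 23123 probe sets were called, and 6 within replicate 1. Those arrays held the lowest AGO2 IP and the highest IgG IP value of TGFBR2 and ACVR2A, so their removal favours a call and supports nothing. IgG IP against Total RNA had 1 within replicate 1, 9 within replicate 2 and 2 with the block and no filter.

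Leaving out each array in turn gave 0 to 9 in AGO2 IP against Total RNA and 0 to 3 in IgG IP against Total RNA. With the block, TGFBR2 ran from 1.73 to 2.76 and was called in 6 of 12 such fits, ACVR2A from 1.61 to 2.84 (5 of 12), ACVR1 from 1.13 to 1.84 (5 of 12) and BMPR2 from -2.26 to -1.17 (6 of 12). Which arrays ended the calls stands in the report. The 12 fits include those without an IgG IP array, which leave the AGO2 IP and Total RNA values as they were. The counts of 12 therefore overstate how well the calls held. The highest adjusted p-values of these fits were 0.0973 for TGFBR2, 0.105 for BMPR2, 0.133 for ACVR1 and 0.139 for ACVR2A. The block also gave 3 calls in IgG IP against Total RNA, where 1153 of all probe sets were called, among them BMPR2 (225144_at) without either control vector AGO2 IP array, with a lowest adjusted p of 0.0159. The median over all probe sets of a gene, whatever their level, was 1.35 for TGFBR2, 1.54 for ACVR2A and -0.83 for BMPR2 in AGO2 IP against Total RNA. For the highest-mean probe sets, no value called with the block over all arrays changed sign under any alternative run. Calls of other probe sets, or made only in other fits, were not followed in this way. ACVR2A in AGO2 IP against IgG IP, called within replicate 1 alone, had the opposite sign in replicate 2.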
